A study of Mus musculus with 203 samples.

Results

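Genes of arginine and nitric oxide (NO) metabolism were followed through a house dust mite (HDM) and cigarette smoke study of the mouse lung. The 9 genes were Nos1, Nos2, Nos3, Arg1, Arg2, Slc7a2, Ass1, Ddah1 and Odc1. They were chosen by name, as genes that make NO or use, carry, rebuild or spare arginine, and all 9 were found by symbol among the 43346 gene rows of the table. Bulk RNA sequencing had been done on libraries of airway and of parenchyma, the alveolar lung tissue left when the airways are dissected out. The mice were female Balb/C animals of 18 to 20 weeks. HDM extract was given through the nose on 5 days per week for 3 weeks, or 3 times per week from weeks 4 to 11, and controls were given phosphate buffered saline (PBS). Whether the 11-week HDM mice had also had the first schedule is not given in the labels. Smoke was given 2 times per day on 5 days per week for 8 weeks, and its controls breathed normal air. Dexamethasone (DEX), a synthetic glucocorticoid, was given in week 11. The 3-week groups were PBS and HDM, and the 8 groups per tissue at 11 weeks were PBS or HDM, with air or smoke, with or without DEX. Each of the 20 groups held 10 libraries, except 11 airway and 12 parenchyma libraries of PBS controls at 3 weeks.

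Arginine is the shared substrate of the NO synthases and the arginases. The synthases make NO and citrulline: NOS1 is the neuronal form, NOS3 the endothelial form and NOS2 the form that macrophages and epithelium make on exposure to interferon and to activators of NF-kB. The arginases make ornithine and urea: ARG1 is the cytosolic form, which type 2 cytokines induce in macrophages, and ARG2 the mitochondrial form. SLC7A2 (also CAT2) carries arginine into cells, ASS1 starts the rebuilding of arginine from citrulline, DDAH1 degrades methylated arginines that inhibit the synthases, and ODC1 turns ornithine into putrescine, the first polyamine. Exhaled NO and airway arginase have long been studied in asthma.

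Library totals were 13003087 to 40240680 counts with a median of 28090612. Levels are given as CPM, counts brought to an equal library size with TMM normalisation, and levels are set side by side between genes only as CPM per kilobase of exon. Markers fitted the tissue labels: in PBS air controls at 11 weeks, the summed ciliated cell markers had medians of 585 CPM in airways and 129.2 CPM in parenchyma, and the alveolar type I markers 2094 and 4333 CPM. Several libraries stood apart. The library coded X63, an airway library of HDM-exposed mice at 3 weeks, had the lowest Nos2, Arg1, Arg2, Slc7a2 and Ass1 and the highest Nos3 of its group. The parenchyma library X70 of HDM-exposed mice at 11 weeks held skeletal muscle transcripts, with Acta1 at 828.91 CPM against at most 0.11 CPM in the other 9 libraries of its group. X32, from parenchyma of HDM-exposed and DEX-treated mice, was the shallowest library and had 52.3% of its counts in its 50 highest genes. X5 and X81, airway libraries of PBS controls at 11 and 3 weeks, had raised Chil4 and Clca1. The codes X173 and X174 broke the odd and even order of airway and parenchyma codes, although their tissue markers went with their labels. Calls that changed without these libraries are given beside the result.

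The RefSeq promoter table of GRCm38.p6, the build of the files (mm10), held 4 of the 9 genes (Ass1, Ddah1, Nos1 and Odc1) and not Nos2, Nos3, Arg1, Arg2 or Slc7a2. Ass1 and Odc1 are shown because HDM alone called Ass1 in every comparison with PBS controls and Odc1 in none. Each stretch is the part of the promoter window that lies before the gene's first annotated base, on the plus strand, at chr2:31470020-31470206 for Ass1 and chr12:17544623-17544793 for Odc1. Capitals mark GCGTG, the core of the site of the aryl hydrocarbon receptor (AhR, a sensor of smoke constituents), or its reverse complement.

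Ass1: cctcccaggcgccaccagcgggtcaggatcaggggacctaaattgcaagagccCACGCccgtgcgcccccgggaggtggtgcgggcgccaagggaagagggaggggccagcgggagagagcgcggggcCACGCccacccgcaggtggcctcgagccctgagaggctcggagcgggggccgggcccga

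Odc1: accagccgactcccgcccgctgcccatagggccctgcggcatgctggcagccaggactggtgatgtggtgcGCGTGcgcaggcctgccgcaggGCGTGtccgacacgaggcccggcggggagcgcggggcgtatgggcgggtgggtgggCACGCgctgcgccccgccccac

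The capitals occurred 2 times in the Ass1 stretch and 3 times in the Odc1 stretch. Of all 32851 promoter windows, 28.2% held the motif on either strand within the 250 bases searched, a length above that of the stretches shown. The same 250 bases were searched on both strands for other motifs as well. No match was found in the windows of Ass1, Ddah1 or Odc1 for the STAT6 motif TTCNNNNGAA (5.85% of all windows), the NF-kB motif GGGNNTTTCC (1.41%), the glucocorticoid receptor motif GNACANNNTGTNC (0.387%), the C/EBP motif TTGCNNAA (9.56%) or TATAAA (12.4%). The Nos1 window held 1 NF-kB match. These are matches of letters only.

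Nos2 (ENSMUSG00000020826.6, chromosome 11:78920787-78960254, plus strand) changed most of the synthases. At 3 weeks its lowest, median and highest airway levels were 1.05, 2.33 and 7.06 CPM in PBS controls and 14.9, 117.99 and 332 CPM in HDM-exposed mice. In parenchyma the levels were 1.91, 2.59 and 5.02 CPM in PBS controls and 83.03, 236 and 398 CPM in HDM-exposed mice. Every HDM library was above every PBS library in both tissues. The rise was 35.4-fold in airways (log2FC 5.15, SE 0.62, adjusted p = 1e-09) and 71.7-fold in parenchyma (log2FC 6.16, SE 0.64, adjusted p = 1.5e-11), by limma-voom with Benjamini-Hochberg adjustment over all genes tested. Without X63 the airway log2FC was 5.46. A gene was called where its adjusted p was under 0.05 and its log2FC was 1 or more either way. By that rule 5 of 8 tested members were called in airways and 5 of 8 in parenchyma, where 24% and 29.6% of all genes tested were called, and all the members called rose. The members' median log2FC was 2.01 in airways and 2.69 in parenchyma, against -0.07 and -0.13 over all genes. The members were chosen with earlier results of these data known, so these figures describe the list and test nothing. In bulk tissue, more cells of a type and more RNA per cell cannot be told apart.

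After 11 weeks the Nos2 rise was smaller. Airway levels were 2.83, 4.07 and 11.5 CPM in PBS air controls and 18.2, 26.5 and 127.2 CPM with HDM. Parenchyma levels were 4.44, 6.30 and 7.27 CPM and 14.1, 42.6 and 123.2 CPM. The groups again did not overlap in either tissue, with a rise of 7.54-fold in airways (log2FC 2.92, SE 0.30, adjusted p = 1.3e-16) and 6.93-fold in parenchyma (log2FC 2.79, SE 0.28, adjusted p = 1.2e-16). HDM called 7 of 9 members in airways and 5 of 9 in parenchyma, and 19.1% and 19.2% of all genes. The highest library of each HDM group, at 127.2 and 123.2 CPM, lay far above the others. The difference between the HDM effects at 11 and 3 weeks was itself past the test, at -2.29 in airways (adjusted p = 0.00079) and -3.49 in parenchyma (adjusted p = 7.4e-08). Across the 20 groups the order of Nos2 medians ran from 2.33 CPM in 3-week airway PBS controls to 236 CPM in 3-week parenchyma of HDM-exposed mice. All 19 pairs of neighbours in that order overlapped in range, as they did for each of the other 8 genes.

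**Figure D1:**
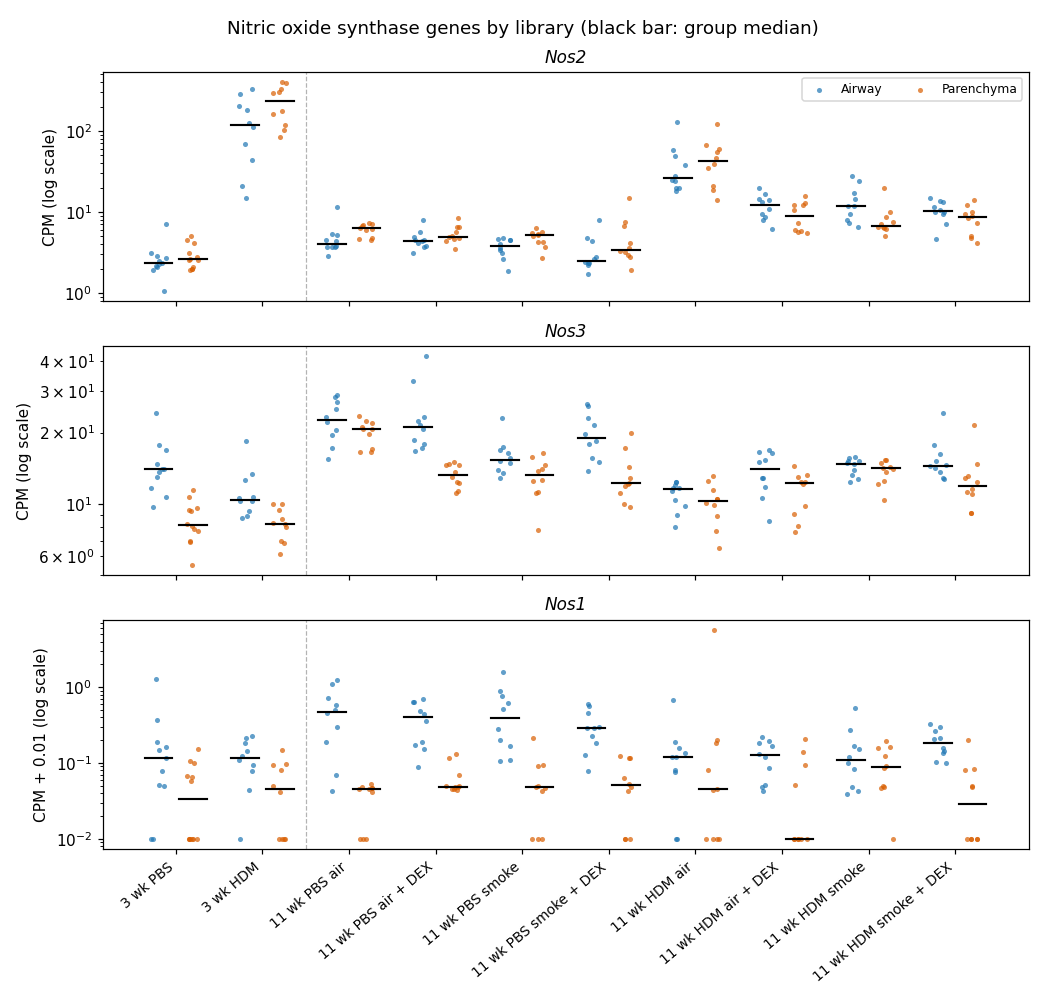
Levels of Nos2, Nos3 and Nos1 in every library, in CPM on a log scale (0.01 was added for Nos1), by group along the x axis, with airways in blue, parenchyma in orange and black bars at group medians. The Nos2 medians of HDM-exposed mice at 3 weeks were 117.99 CPM in airways and 236 CPM in parenchyma, and smoke or DEX groups with HDM lay between these and the controls, while 1 parenchyma library (X70) stood alone for Nos1.

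Nos3 (ENSMUSG00000028978.8, chromosome 5:24364810-24384474, plus strand) moved the other way. Atg9b on the opposite strand overlaps it, and whether the counting used strand is not given in the sources used here, so reads of the pair may not be separated. At 3 weeks its airway levels were 9.75, 14.05 and 24.2 CPM in PBS controls and 8.70, 10.4 and 18.5 CPM with HDM. The groups overlapped, and the difference was -0.41 (95% interval -0.65 to -0.16, adjusted p = 0.004), short of a call. In parenchyma the difference at 3 weeks was -0.12 with a 95% interval of -0.42 to 0.19. At 11 weeks airway levels were 15.5, 22.7 and 28.95 CPM in controls and 8.03, 11.5 and 12.4 CPM with HDM, with no overlap. Nos3 fell 2.03-fold in airways (log2FC -1.02, SE 0.13, adjusted p = 2.9e-12). Parenchyma levels were 16.6, 20.6 and 23.6 CPM and 6.51, 10.3 and 13.2 CPM, also without overlap. That difference (log2FC -0.95, SE 0.13, adjusted p = 2.6e-10) missed the fold threshold, and passed it, at -1.02, without X173 and X174. The HDM effect on Nos3 at 11 weeks less that at 3 weeks was -0.68 in airways (adjusted p = 0.0022) and -0.96 in parenchyma (adjusted p = 6e-05).

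Endothelial markers were lower in the same comparisons, and none of the 10 had a group median of 0. Their summed level had a lowest, median and highest value of 3442, 3917 and 4265 CPM in parenchyma of PBS air controls at 11 weeks and 932, 1455 and 2407 CPM with HDM. In airways the values were 1020, 2261 and 2898 and 949, 1178 and 1577 CPM. Of the 10 markers, 2 were called lower in airways and 9 in parenchyma, and none higher. Of all genes at 11 weeks, 8.54% in airways and 6.12% in parenchyma were called lower. The median log2 ratio of Nos3 to the summed markers was -6.66 and -6.71 in airways and -7.61 and -7.30 in parenchyma, without and with HDM. At 3 weeks, when the summed markers had medians of 2594 CPM without and 1081 CPM with HDM in parenchyma, the ratio went from -8.29 to -6.94. The part of endothelial RNA in the Nos3 difference was not tested.

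Nos1 (ENSMUSG00000029361.14, chromosome 5:117781032-117958840, plus strand, overlapped by Gm26995 and Gm37028) was near the limit of detection. It passed the filter on low counts at 11 weeks but not at 3 weeks. Airways of PBS air controls at 11 weeks held 1, 14 and 36 counts (lowest, median and highest library), or 0.0326, 0.468 and 1.24 CPM, and no parenchyma library of those controls had more than 1 count. The ratio of the rates of summed counts, airways over parenchyma, was 18.7 with an exact 95% interval of 8.86 to 47.3 that covers counting error only. The fitted difference was 3.11 on the log2 scale (SE 0.61, adjusted p = 4.7e-06). With HDM the airways held 0, 3 and 21 counts, or 0, 0.109 and 0.672 CPM, and the difference was called (log2FC -1.68, SE 0.52, adjusted p = 0.003) although the groups overlapped. In the same airways the skeletal muscle markers went from a median of 55.1 to 9.43 CPM and the neuron markers from 10.2 to 3.03 CPM. Of the skeletal muscle list 3 of 5 genes had a group median of 0 in some group, as had Chat of the neuron markers. Their part in the Nos1 difference was not tested.

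In parenchyma Nos1 followed a single library. X70 had Nos1 at 5.70 CPM, while the other 9 HDM libraries had 0 to 0.192 CPM. Limma-voom gave a log2FC of 0.86 (adjusted p = 0.3) for HDM at 11 weeks, and 0.17 without X70. The ratio of summed counts was 19.8 (exact 95% interval 9.38 to 50.1) with X70 and 2.17 (0.834 to 6.30) without it. X70 also had the muscle genes Ckm at 553 CPM and Myh4 at 537 CPM.

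Among the synthases, Nos2 went from the minor to the major transcript. Per kilobase, Nos3 in 3-week airway PBS controls had a mean of 3.53 ± 0.968 CPM per kb (SD, n = 11) and Nos2 0.619 ± 0.347 CPM per kb. With HDM, Nos2 reached 31.4 ± 24.9 CPM per kb in airways and 53.4 ± 27.2 in parenchyma (SD, n = 10 each). Nos2 made up 6.56%, 14.6% and 28.1% of the summed synthase CPM per kb in airway PBS controls (lowest, median and highest), and 42.9%, 91.6% and 96.8% with HDM. The lowest of these HDM libraries was X63. In parenchyma the share was 14.5%, 22.3% and 33.8% in controls and 92.7%, 95.8% and 97.8% with HDM. At 11 weeks the medians with HDM were 71.2% in airways and 79.2% in parenchyma, against 14.9% and 22.4% in PBS air controls.

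**Figure D2:**
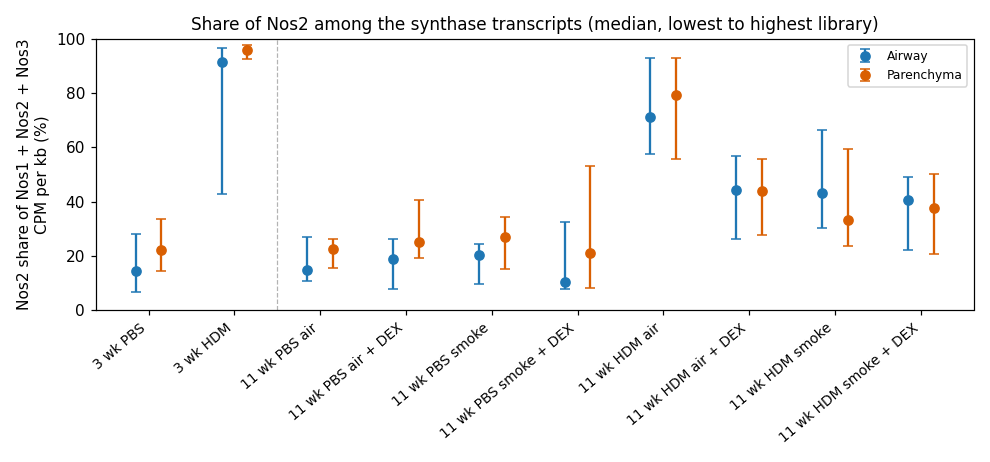
Nos2 as a percentage of the summed CPM per kb of Nos1, Nos2 and Nos3 in each group, with the median as a point, the lowest and highest library as bar ends, airways in blue and parenchyma in orange. The median was 91.6% in airways and 95.8% in parenchyma of HDM-exposed mice at 3 weeks and 43.3% and 33.2% after HDM plus smoke.

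Arg1 (ENSMUSG00000019987.8, chromosome 10:24915221-24927484, minus strand) rose with Nos2. At 3 weeks its airway levels were 1.80, 2.55 and 7.41 CPM in PBS controls and 18.2, 119.1 and 345 CPM in HDM-exposed mice. Parenchyma levels were 1.5995, 2.81 and 4.28 CPM and 57.4, 228 and 332 CPM. No HDM library overlapped the controls. The rise was 33.8-fold in airways (log2FC 5.08, SE 0.55, adjusted p = 7.4e-11) and 66.5-fold in parenchyma (log2FC 6.06, SE 0.60, adjusted p = 3.9e-12). By 11 weeks the airway levels were 1.19, 2.18 and 3.43 CPM in PBS air controls and 4.19, 18.5 and 77.4 CPM with HDM, and the parenchyma levels 1.202, 2.03 and 6.57 and 4.18, 25.3 and 148.5 CPM. All airway HDM libraries and 9 of 10 parenchyma HDM libraries were above every control. Arg1 was 8.31-fold higher in airways (log2FC 3.06, SE 0.53, adjusted p = 1.8e-07) and 12.5-fold higher in parenchyma (log2FC 3.64, SE 0.54, adjusted p = 1.6e-09). The HDM effect was smaller than at 3 weeks, with differences of -2.08 (adjusted p = 0.024) and -2.54 (adjusted p = 0.0049), and both differences missed the test when genes under 10 CPM were left out.

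Arg2 (ENSMUSG00000021125.6, chromosome 12:79130777-79156301, plus strand, overlapping Vti1b on the other strand) rose too, with smaller folds than those of Arg1. Airway levels at 3 weeks were 6.08, 12.5 and 14.2 CPM in PBS controls and 20.7, 55.2 and 84.2 CPM with HDM. Parenchyma levels were 13.3, 17.2 and 22.3 and 78.7, 93.7 and 127.8 CPM. The groups did not overlap, and the rise was 4.68-fold (log2FC 2.23, SE 0.19, adjusted p = 8.9e-14) and 5.53-fold (log2FC 2.47, SE 0.18, adjusted p = 4.4e-16). At 11 weeks the airways had 5.16, 7.25 and 15.1 CPM in controls and 23.5, 37.97 and 52.8 CPM with HDM, and the parenchyma 10.5, 13.4 and 22.2 and 37.3, 48.5 and 78.9 CPM, again apart. The airway rise was 5.04-fold and the parenchyma rise 3.88-fold (log2FC 1.96, SE 0.17, adjusted p = 4e-20). The HDM effects at 11 and 3 weeks differed by 0.05 in airways, with a 95% interval of -0.48 to 0.58, and by -0.64 in parenchyma (adjusted p = 0.029). By the median ratio, the arginase with the higher level per kb changed at 3 weeks. The median log2 ratio of Arg1 to Arg2 per kb went from -2.78 to 0.51 in airways and from -3.25 to 0.56 in parenchyma. Libraries with HDM ran from -1.23 to 1.74 in airways and from -1.17 to 1.26 in parenchyma, so Arg2 stayed the higher in some. At 11 weeks the median stayed below 0, at -1.53 and -1.38 with HDM. The median log2 ratio of Arg1 to Nos2 per kb changed less. It was 1.18 and 1.16 in 3-week airways and 0.95 and 0.56 in 3-week parenchyma, without and with HDM. Single libraries spread widely, with HDM from -0.57 to 3.35 in 3-week airways and from -1.55 to 2.65 in 3-week parenchyma. At 11 weeks the medians were -0.06 and 0.25 in airways and -0.44 and 0.75 in parenchyma, without and with HDM.

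The transcripts of the arginine carrier Slc7a2 and of Ass1 rose as well. Slc7a2 (ENSMUSG00000031596.11, chromosome 8:40862396-40922308, plus strand) had airway levels of 34.4, 56.7 and 83.1 CPM in PBS controls and 58.2, 344 and 598 CPM with HDM at 3 weeks. Its parenchyma levels were 48.5, 60.3 and 85.5 and 378, 469 and 635 CPM. All parenchyma and 9 of 10 airway HDM libraries were above every control, the exception being X63. Slc7a2 rose 4.63-fold in airways (log2FC 2.21, SE 0.23, adjusted p = 3.5e-11) and 7.50-fold in parenchyma (log2FC 2.91, SE 0.24, adjusted p = 1.5e-14). After 11 weeks the levels were 44.9, 71.9 and 93.9 and 127.3, 196.4 and 283 CPM in airways and 53.3, 78.7 and 127.4 and 167.3, 269 and 473 CPM in parenchyma, without and with HDM. The groups did not overlap, with rises of 3.02-fold and 3.50-fold (log2FC 1.59 and 1.81). The HDM effect at 11 weeks less that at 3 weeks was -0.68 in airways (adjusted p = 0.035) and -1.23 in parenchyma (adjusted p = 4.5e-05).

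Ass1 (ENSMUSG00000076441.5, chromosome 2:31470207-31520672, plus strand) differed between tissues. Its 3-week levels were 16.7, 26.6 and 32.3 CPM in airway PBS controls and 31.003, 86.3 and 197.98 CPM with HDM, and 10.7, 12.6 and 20.7 and 90.9, 193.99 and 242 CPM in parenchyma. The parenchyma started lower and ended higher at the median. The rise was 3.50-fold in airways (log2FC 1.81, SE 0.22, adjusted p = 1.1e-09, 9 of 10 HDM libraries above every control) and 11.9-fold in parenchyma (log2FC 3.57, SE 0.25, adjusted p = 2.1e-16, no overlap). The HDM effect in airways less that in parenchyma was -1.76 (adjusted p = 0.00051). Ass1 was 1 of 8 members past this test at 3 weeks (17.3% of all genes). At 11 weeks the airways had 25.7, 33.7 and 41.7 CPM in controls and 57.8, 81.7 and 139.4 CPM with HDM, and the parenchyma 20.9, 24.9 and 28.7 and 56.97, 113.4 and 170.5 CPM, with no overlap in either. The rises were 2.67-fold (log2FC 1.42, adjusted p = 2.3e-18) and 4.76-fold (log2FC 2.25, adjusted p = 1e-31), and the tissue difference was -0.83 (adjusted p = 0.00053).

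The summed macrophage markers were higher in the same groups, and none of the 8 had a group median of 0. In 3-week airways their summed level was 274, 382 and 489 CPM in controls and 736, 1050 and 1391 CPM with HDM, and in parenchyma 311, 346 and 441 and 1273, 1442 and 1539 CPM. Of the 8 markers, 5 were called higher in each tissue and 1 lower in airways. Of all genes at 3 weeks, 12.1% in airways and 14.5% in parenchyma were called higher, and 11.8% in airways lower. Relative to the summed markers, the median log2 ratio of Nos2 went from -7.00 to -2.66 in 3-week parenchyma and that of Arg1 from -7.05 to -2.70. For Arg2 it went from -4.38 to -3.88, for Slc7a2 from -2.56 to -1.56 and for Ass1 from -4.71 to -2.89. In 11-week airways the ratio of Ass1 was -3.46 without and -3.53 with HDM, and that of Slc7a2 -2.35 and -2.20. Summed neutrophil markers also rose, from a median of 427 to 1637 CPM in 3-week parenchyma, with 7 of 7 called. Which cells held the transcripts was not tested.

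**Figure D3:**
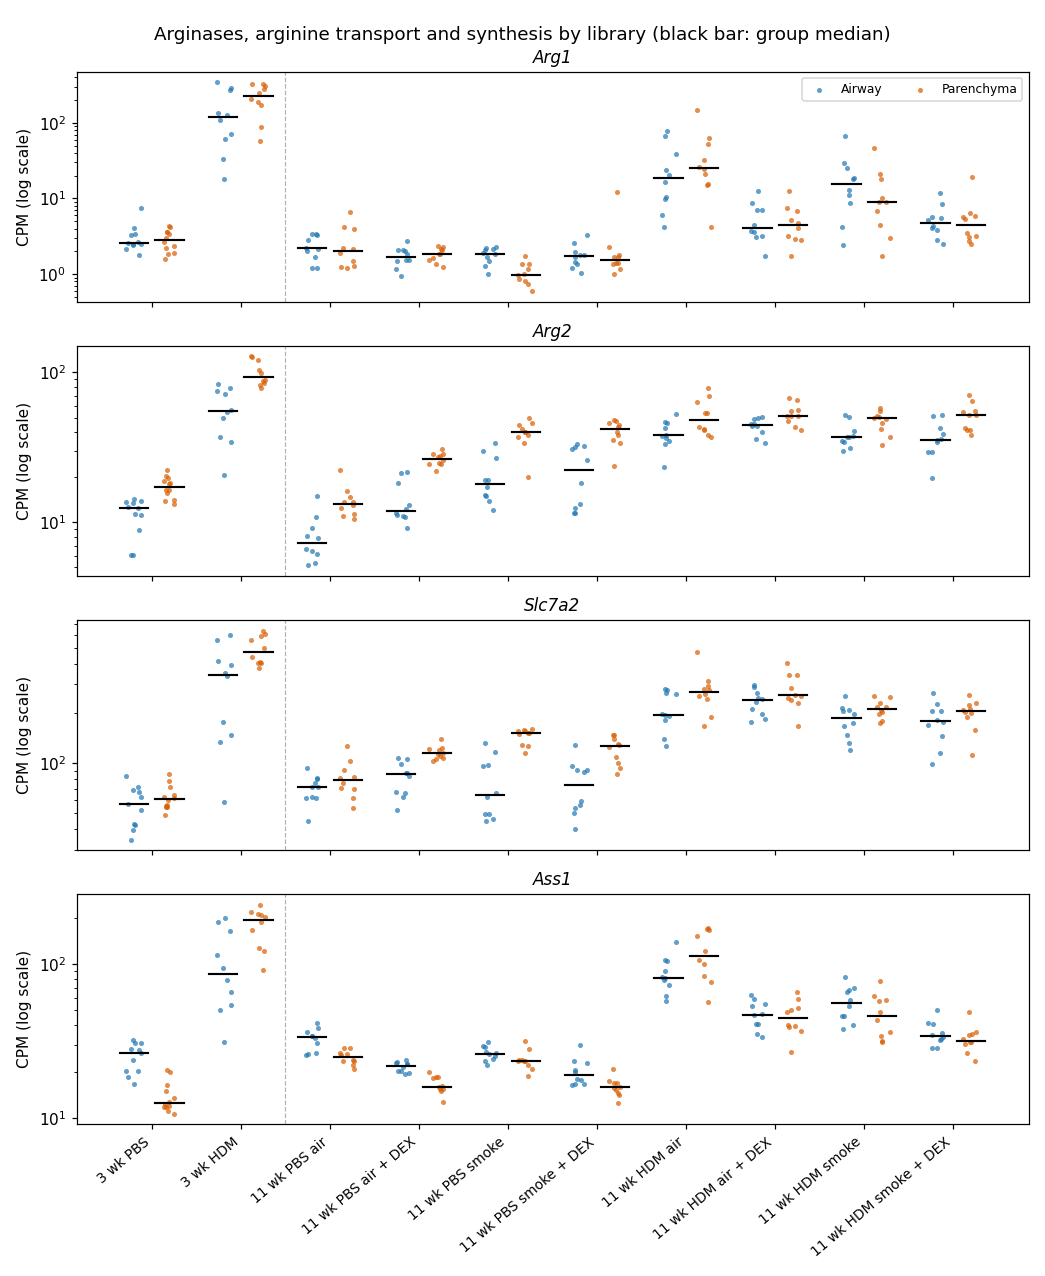
Levels of Arg1, Arg2, Slc7a2 and Ass1 in every library, in CPM on a log scale, by group along the x axis, with airways in blue, parenchyma in orange and black bars at group medians. In smoke groups without HDM, Arg2 medians were 18.2 CPM in airways and 40.1 CPM in parenchyma, above the 7.25 and 13.4 CPM of PBS air controls, while Arg1 medians were 1.87 and 0.981 CPM.

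Ddah1 and Odc1 were not called in any comparison of HDM alone with PBS controls. Ddah1 (ENSMUSG00000028194.11, chromosome 3:145758675-145894277, plus strand) had airway levels of 6.80, 10.2 and 14.8 CPM in 3-week PBS controls and 6.79, 11.7 and 19.4 CPM with HDM, a difference of 0.19 with a 95% interval of -0.09 to 0.46. In parenchyma at 11 weeks it had 29.97, 38.2 and 48.1 CPM in PBS air controls and 9.01, 23.4 and 45.1 CPM with HDM. The groups overlapped, and Ddah1 was lower by the adjusted p but short of the fold threshold (log2FC -0.78, SE 0.19, adjusted p = 0.00017). The alveolar type I markers were lower there as well, going from a median sum of 4333 to 2336 CPM, and the median log2 ratio of Ddah1 to them was -6.76 without and -6.64 with HDM. The HDM effect on Ddah1 in parenchyma at 11 weeks less that at 3 weeks was -0.82 (adjusted p = 0.0073).

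Odc1 (ENSMUSG00000011179.7, chromosome 12:17544794-17551505, plus strand) had the highest level per kb of the 9 genes in 3-week control lungs, at 35.9 ± 5.34 CPM per kb in airways and 25.2 ± 2.95 in parenchyma of 3-week PBS controls (SD, n = 11 and 12). Its 3-week airway levels were 95.9, 116.8 and 151.3 CPM in controls and 104.9, 125.2 and 150.3 CPM with HDM. The difference was 0.02, with a 95% interval of -0.13 to 0.17. In parenchyma it was 0.18 at 3 weeks (adjusted p = 0.027) and 0.36 at 11 weeks (adjusted p = 0.0002), with 11-week levels of 59.2, 62.96 and 71.4 and 60.5, 79.2 and 103.4 CPM that overlapped. Ornithine, which the arginases make, is the substrate of ODC1, and Odc1 was not called in the groups where Arg1 and Arg2 rose.

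Tissue set the control levels of some members. In PBS controls at 3 weeks limma-voom called 0 of 8 members between airways and parenchyma (11.9% of all genes), and edgeR and DESeq2 also called 0. By an adjusted p under 0.05 alone 5 of the 8 passed, as did 9744 of all 17381 genes tested. The 5 were Nos3 (0.79), Ass1 (0.86) and Odc1 (0.52), higher in airways, and Arg2 (-0.64) and Ddah1 (-0.85), higher in parenchyma, all as log2 differences. At 11 weeks 2 of 9 were called (16.1% of all genes): Nos1, higher in airways, and Ddah1, higher in parenchyma. Ddah1 differed by 2.25-fold (log2FC -1.17, SE 0.20, adjusted p = 8.8e-08, no overlap). With quality weights its log2FC was -0.97, short of the fold threshold. HDM effects differed between tissues for 3 of 9 members at 11 weeks (27.6% of all genes), namely Ass1, Odc1 (-0.52, adjusted p = 0.00084) and Nos1 (-2.53, adjusted p = 0.021). The Nos1 value was -1.86 without X70, with an adjusted p of 0.089. HDM effects differed between 11 and 3 weeks for 4 of 9 members in airways (28.4% of all genes) and 7 of 9 in parenchyma (42.4%), each with a smaller rise, or a larger fall, at 11 weeks. In airways Ass1 passed as well without X63 (-0.61, adjusted p = 0.024), by edgeR, by DESeq2 and with quality weights, Ddah1 passed with quality weights (-0.81, adjusted p = 0.023), and Nos1 passed without X5 and X81 (-1.95, adjusted p = 0.046). Arg1 (adjusted p = 0.12) missed the test with genes under 10 CPM left out and Slc7a2 (adjusted p = 0.055) with no filter on low counts. The 3-week and 11-week mice differed in HDM schedule and had separate controls, so schedule and time cannot be told apart.

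**Figure D4:**
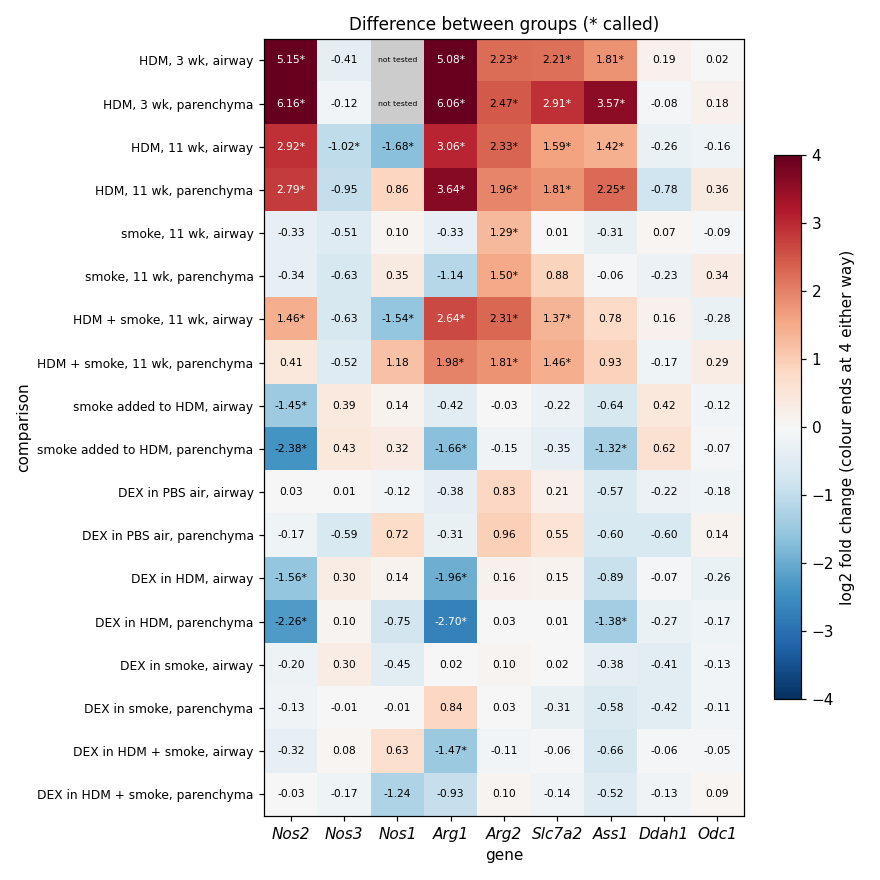
Log2 fold changes of the 9 genes (columns) in 18 comparisons between groups (rows), from limma-voom, with red for higher, blue for lower and an asterisk where the gene was called; colours end at 4 either way. HDM rows show Nos2 from 2.79 to 6.16 and Arg1 from 3.06 to 6.06, and the rows of smoke or DEX added to HDM alone show Nos2 at -1.45 to -2.38.

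With smoke alone, limma-voom called Arg2 and no other member. Arg2 levels were 12.04, 18.2 and 33.6 CPM in airways and 20.1, 40.1 and 49.5 CPM in parenchyma of smoke-exposed mice, against the air controls given above. It was called in both tissues, 2.45-fold higher in airways (log2FC 1.29, SE 0.20, adjusted p = 2.5e-07) and 2.84-fold higher in parenchyma (log2FC 1.504, SE 0.18, adjusted p = 1.1e-12), and it was the 1 member called of 9 in each (2.78% and 5.33% of all genes). Slc7a2 was higher in parenchyma, at 115.9, 151.8 and 161.4 CPM, by 0.88 on the log2 scale (adjusted p = 1.9e-06), short of a call. Nos3 was lower in both tissues, with a log2FC of -0.51 in airways (adjusted p = 0.00071) and -0.63 in parenchyma (adjusted p = 2e-05), where the groups did not overlap. Nos2 differed by -0.33 (95% interval -1.08 to 0.42) and -0.34 (-1.05 to 0.38). Arg1 in parenchyma was at 0.590, 0.981 and 1.72 CPM with smoke, a log2FC of -1.14 with an adjusted p of 0.28. edgeR and DESeq2 called it at -1.30, with adjusted p of 0.019 and 0.0064. Macrophage markers were higher with smoke too, at a median sum of 683 CPM in airways and 969 CPM in parenchyma, and the ratio of Arg1 to Arg2 per kb had a median log2 of -4.09 and -5.85.

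Smoke given with HDM went with lower Nos2 than HDM alone. Nos2 levels after HDM plus smoke were 6.52, 11.8 and 28.05 CPM in airways and 5.08, 6.74 and 19.6 CPM in parenchyma. Against HDM alone, Nos2 had a log2FC of -1.45 in airways (SE 0.23, adjusted p = 4.8e-07) and -2.38 in parenchyma (SE 0.26, adjusted p = 1.3e-12), with overlap in both. It was the 1 member called of 9 in airways (2.64% of all genes), and 3 of 9 were called in parenchyma (4.36%). The others there were Arg1, at 1.72, 8.997 and 46.01 CPM (log2FC -1.66, SE 0.37, adjusted p = 0.00023), and Ass1, at 31.2, 46.3 and 77.4 CPM (log2FC -1.32, SE 0.13, adjusted p = 2.6e-14). For Arg2 no difference was detected. Its levels were 29.7, 37.04 and 52.3 CPM in airways and 32.8, 49.5 and 57.8 CPM in parenchyma, and the differences from HDM alone were -0.03 (95% interval -0.32 to 0.27) and -0.15 (-0.44 to 0.15). Slc7a2 differed by -0.22 (-0.55 to 0.10) and -0.35 (-0.68 to -0.01). Nos3 was higher with smoke than with HDM alone, by 0.39 and 0.43 (adjusted p = 0.027 and 0.014). The macrophage marker sum was 922, 1119 and 1351 CPM with HDM and 919, 1125 and 1232 CPM with HDM plus smoke in parenchyma, and the endothelial sum 1455 and 2431 CPM at the median.

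Against PBS air controls, HDM plus smoke called 5 of 9 members in airways (13.1% of all genes) and 3 of 9 in parenchyma (11.1%). In airways Arg1 (2.64), Arg2 (2.31), Nos2 (1.46) and Slc7a2 (1.37) were higher and Nos1 (-1.54) lower. In parenchyma Arg1 (1.98), Slc7a2 (1.46) and Arg2 (1.81) were higher, and Nos2 differed by 0.41 with a 95% interval of -0.24 to 1.06. The HDM alone, smoke alone and HDM plus smoke comparisons share these controls. The interaction asked whether the HDM effect differed between smoke and air. In parenchyma 7 of 9 members passed an adjusted p of 0.05 (36% of all genes), among them Nos2 (-2.05), Arg2 (-1.65), Ass1 (-1.27) and Slc7a2 (-1.23), whose HDM effect was smaller in smoke, and Nos3 (1.06), whose fall was smaller. The Odc1 interaction there (-0.41, adjusted p = 0.0064) was -0.28 with an adjusted p of 0.066 without X173 and X174. In airways 2 of 9 passed (19.1% of all genes): Arg2 (-1.32, adjusted p = 3.9e-05) and Nos3 (0.90, adjusted p = 6e-05). Nos2 in airways had -1.13 with an adjusted p of 0.061, and passed by edgeR (adjusted p = 0.024), by DESeq2 (adjusted p = 0.02), with quality weights (-1.18, adjusted p = 0.049) and with the round of library codes as a block (-1.16, adjusted p = 0.026).

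In HDM-exposed mice DEX went with lower Nos2, Arg1 and Ass1, while Arg2 and Slc7a2 were not called. With DEX, Nos2 levels were 6.22, 12.1 and 19.8 CPM in airways and 5.42, 8.91 and 15.6 CPM in parenchyma, and Arg1 levels 1.72, 4.11 and 12.5 and 1.71, 4.41 and 12.6 CPM. Nos2 was lower than with HDM alone (log2FC -1.56, SE 0.24, adjusted p = 2.7e-08 in airways, log2FC -2.26, SE 0.26, adjusted p = 2.3e-12 in parenchyma). Arg1 was lower as well (log2FC -1.96, SE 0.44, adjusted p = 0.00017 and log2FC -2.70, SE 0.45, adjusted p = 5e-07). Ass1, at 33.8, 46.97 and 62.8 CPM in airways and 26.8, 44.5 and 66.1 CPM in parenchyma, had a log2FC of -0.89 (adjusted p = 1.8e-08), short of a call, and -1.38 (adjusted p = 2.1e-15). DEX called 2 of 9 members in airways (5.86% of all genes) and 3 of 9 in parenchyma (6.02%). Arg2 differed by 0.16 (95% interval -0.14 to 0.45) and 0.03 (-0.26 to 0.32), and Slc7a2 by 0.15 (-0.18 to 0.48) and 0.01 (-0.32 to 0.35). The macrophage marker sum in airways was 828, 972 and 1260 CPM with HDM and 814, 1006 and 1330 CPM with HDM and DEX. The median sum of the 5 eosinophil markers was 23.4 CPM with HDM and 14.8 CPM with HDM and DEX in airways, and 29.6 and 19.2 CPM in parenchyma, with 2 of 4 tested called lower in each. Epx, a defining eosinophil gene, had a median of 0 in 15 of the 20 groups. That of the 7 neutrophil markers was 609 and 429 CPM in airways and 720.3 and 522 CPM in parenchyma, with 1 called lower in each. The part of these cells in the differences was not tested. The DEX effect differed between HDM and PBS mice for 1 of 9 members in airways (4.62% of all genes), Nos2 (-1.59, adjusted p = 0.014). The Nos2 value missed the test with genes under 10 CPM left out (adjusted p = 0.055) and with all libraries in 1 fit (adjusted p = 0.081), and Arg1 passed there by edgeR (-1.93, adjusted p = 0.039) and DESeq2 (-1.90, adjusted p = 0.026). In parenchyma it differed for 5 of 9 (12.4%): Nos2 (-2.09, adjusted p = 0.00049), Arg1 (-2.40, adjusted p = 0.047), Arg2 (-0.93), Ass1 (-0.79) and Nos3 (0.69). The Arg1 value missed the test without X173 and X174 (adjusted p = 0.05), with all libraries in 1 fit (0.065) and with genes under 10 CPM left out (0.22).

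In mice without HDM limma-voom called no member for DEX. In PBS air mice limma-voom called 0 of 9 members in airways (2.41% of all genes) and 0 of 9 in parenchyma (3.16%), and edgeR and DESeq2 called 0 in both. By an adjusted p under 0.05 alone 2 and 5 members passed, as did 2716 and 4124 of all 18250 genes tested. Arg2 was higher by 0.83 (adjusted p = 0.0026) and 0.96 (adjusted p = 1.2e-05), with levels of 9.16, 11.98 and 21.6 and 22.05, 26.7 and 30.9 CPM. Ass1 was lower, with a log2FC of -0.57 (adjusted p = 0.0019) and -0.60 (adjusted p = 0.002). Its libraries did not overlap in either tissue, at 19.3, 21.9 and 24.03 CPM in airways and 12.8, 16.04 and 19.98 CPM in parenchyma with DEX. Nos3 in parenchyma was lower, with a log2FC of -0.59 (adjusted p = 0.00012), with no overlap. In smoke mice 0 of 9 members were called in airways (2.47% of all genes) and in parenchyma (2.75%). By adjusted p alone 0 and 1 passed, as did 2059 and 3080 of all 18250 genes tested. edgeR and DESeq2 called 0 in airways and 1 in parenchyma, Arg1, at 1.30 and 1.31. In HDM plus smoke mice 1 of 9 was called in airways (2.04% of all genes), Arg1 (log2FC -1.47, SE 0.44, adjusted p = 0.015), and 0 in parenchyma (2.03%). By adjusted p alone 1 member passed in parenchyma, as did 1434 of all 18250 genes tested. There edgeR and DESeq2 called Arg1, at -1.20 and -1.18. Nos2 differed with DEX by -0.32 (95% interval -0.84 to 0.19) in airways of HDM plus smoke mice, from a median of 11.8 to 10.1 CPM.

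The rest of the pathway was described with 53 genes in 6 lists, of which 49 were tested, and Prmt1 was not analysed here. At 3 weeks HDM called 5 of the 49 higher and 8 lower in airways and 7 and 9 in parenchyma, where 12.1% and 11.8%, and 14.5% and 15.1%, of all genes were called in these directions. At 11 weeks the counts were 6 and 4 in airways and 7 and 10 in parenchyma, against 10.6% and 8.54%, and 13% and 6.12%, of all genes. The list medians were -0.16, -0.17, 0.01 and 0.08 in the same order, near the medians over all genes. Of 7 genes of the targets and removal of NO, 4, 3, 2 and 5 were called lower in the same order and 0 higher. Genes of guanylate cyclase, the NO receptor, were among them: in 3-week parenchyma Gucy1a1 had -1.77 and Gucy1b1 -1.45, and the cyclic GMP phosphodiesterase Pde5a -1.76. In 11-week airways, Gucy1a2 had -1.22 and the cyclic GMP-dependent kinase gene Prkg1 -1.22. Of 11 cofactor and partner genes, 1, 1, 0 and 1 were called higher and 2, 2, 2 and 3 lower. Cav1, which binds and restrains NOS3, had -1.88, -2.04, -1.07 and -1.62, and Gchfr, the feedback regulator of cofactor synthesis, -1.53, -2.14, -1.13 and -1.10. The endothelial marker levels given above were lower with HDM as well, and their part in these differences was not tested.

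Of 7 genes of proline and creatine synthesis from arginine and ornithine, 3 were called higher in each of the 4 HDM comparisons, and 1 lower in 3-week parenchyma (Prodh, which degrades proline, -1.16). The 3 were Gatm, which makes the creatine precursor from arginine (2.78, 3.43, 1.995 and 1.92), and the proline synthesis genes Pycr1 (1.18, 1.72, 3.05 and 3.27) and Aldh18a1 (1.12, 1.54, 1.32 and 1.58). With DEX in HDM-exposed mice Pycr1 was called lower, at -1.50 in airways and -1.18 in parenchyma. Of 12 polyamine genes tested, 2 were called higher in 3-week parenchyma, Smox (1.503) and Srm (1.15), and 1 lower, Oaz2 (-1.08). In the other 3 comparisons 0 were called. Of all genes in 3-week parenchyma, 14.5% were called higher and 15.1% lower. Of the 2 methylarginine genes tested, Ddah2 was called lower in 3-week airways (-1.21), 3-week parenchyma (-1.16) and 11-week parenchyma (-1.004). Among 10 genes of arginine transport and the urea cycle, 1, 1, 3 and 3 were called higher and 1, 1, 0 and 1 lower. Slc7a7 had 1.01 in airways and 1.05 in parenchyma at 11 weeks, while Nags and Otc, with group medians of few counts, were called at 4.02 and -2.23 in 3-week parenchyma.

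Lists of genes known to act in the induction of Nos2 (the interferon and NF-kB side) and Arg1 (the type 2 side) were counted as well. Of all genes, 12.1%, 14.5%, 10.6% and 13% were called higher with HDM in the same order. Of 6 genes on the interferon and NF-kB side, 5, 6, 4 and 4 were called higher with HDM in the same order. Tnf had 3.01 and 3.995 at 3 weeks, Ifng 2.77 and 2.91 and Il1b 2.82 and 3.21. Of 6 genes on the type 2 side 2, 1, 1 and 1 were called higher, or a single gene in 3 of the 4 comparisons. Smoke alone called Tnf (1.08 and 2.53) and Il1b (1.07 and 1.34) higher in airways and parenchyma, in groups where Nos2 was not called. With DEX in HDM-exposed mice Ifng was called lower (-1.36 and -1.34). The part of these genes in the Nos2 and Arg1 levels was not tested.

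Likeness of pattern was described over the 20 group means of log2 CPM, across 14100 genes, with no test. Nos2 was most like Arid5a (Pearson r = 0.974), Jak2 (0.969) and Hif1a (0.967), and Arg1 most like Cbln1 (0.981), Cxcl11 (0.97) and Il20rb (0.966). Arg2 was closest to Cd300lf (0.984), Chil3 (0.979) and Stxbp2 (0.979), Slc7a2 to C9orf72 (0.989), Ticam2 (0.984) and Clcn7 (0.983), and Ass1 to Slamf8 (0.967), H2-M2 (0.967) and Prg2 (0.958). Nos3 was closest to Pdlim5 (0.962), Ttbk2 (0.941) and C2cd2 (0.926), and Ddah1 to Armcx4 (0.94), Atxn3 (0.924) and Traf7 (0.917). For Odc1 the closest were Slc16a4 (0.925), Adamdec1 (0.918) and Ruvbl1 (0.913), and for Nos1 Sgcd (0.953), Sync (0.937) and Elovl3 (0.936). Between members, r over the 20 groups was 0.951 for Nos2 and Arg1, 0.93 for Arg2 and Slc7a2, 0.925 for Nos2 and Ass1, 0.911 for Arg1 and Ass1, and -0.548 for Nos2 and Nos3. The groups share their HDM, smoke and tissue contrasts, so these values describe the 20 groups only.

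In airways of HDM-exposed mice at 3 weeks, libraries high in Nos2 were high in Arg2, Slc7a2 and Ass1. Log2 CPM of Nos2 was set against 4 members in 4 groups of 10 libraries, 16 relations in all, with permutation p-values adjusted over the 16. In 3-week airways Pearson's r was 0.96 with Arg2 (permutation p = 2e-05, adjusted 0.00032) and Spearman's rho 0.964 (permutation p = 8e-05, adjusted 0.0012). With Slc7a2 r was 0.951 (permutation p = 4e-05, adjusted 0.00032) and rho 0.952 (permutation p = 0.00015, adjusted 0.0012). With Ass1 r was 0.91 (permutation p = 0.00023, adjusted 0.0012) and rho 0.879 (permutation p = 0.0017, adjusted 0.009). With Arg1 r was 0.662 (permutation p = 0.037, adjusted 0.086) and rho 0.648 (permutation p = 0.049, adjusted 0.16). Leaving out the 2 libraries farthest from the Nos2 median, r was 0.968, 0.915, 0.832 and 0.572 in the same order. In 3-week parenchyma Nos2 and Ass1 had r of 0.828 (permutation p = 0.0031, adjusted 0.012) and rho of 0.648 (permutation p = 0.049, adjusted 0.16), with r of 0.73 without the 2 farthest, and Nos2 and Arg1 had r of -0.384 and rho of -0.479 (adjusted 0.43 and 0.29). In the 11-week HDM groups no relation had an adjusted p under 0.05, the lowest being that of Nos2 and Ass1 in parenchyma (r = 0.731, adjusted permutation p = 0.054). The difference between these r values was not tested.

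**Figure D5:**
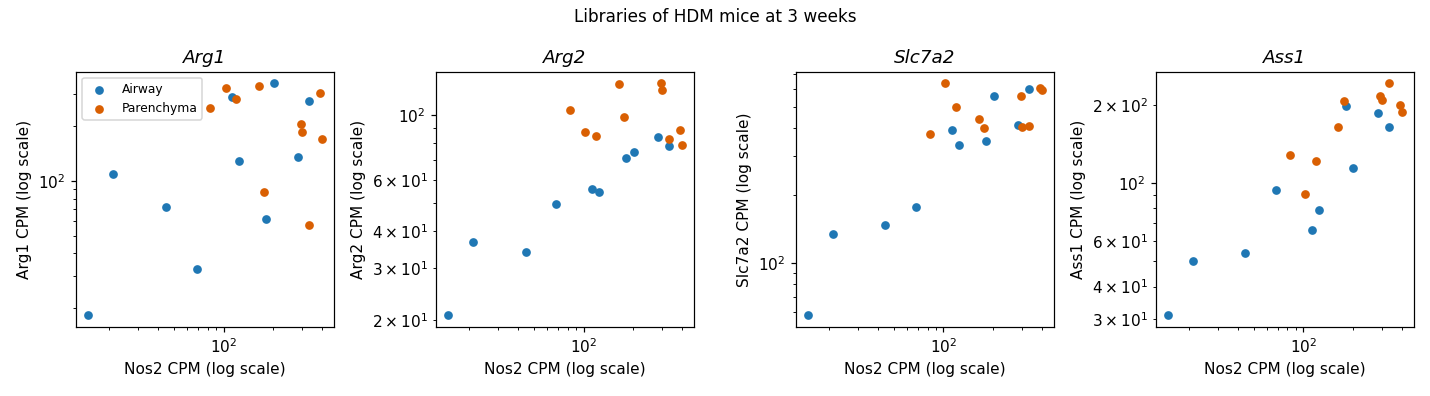
Levels of Arg1, Arg2, Slc7a2 and Ass1 against Nos2 in the 10 airway (blue) and 10 parenchyma (orange) libraries of HDM-exposed mice at 3 weeks, all axes in CPM on log scales. Airway libraries line up for Arg2 (r = 0.96) and Slc7a2 (r = 0.951) and scatter for Arg1 (r = 0.662), and the lowest airway point is X63, at 14.9 CPM of Nos2.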

How the data were processed

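Gene counts were taken from 1 table of 43346 genes. The values are estimated counts (expected counts) per gene and library, made from the aligned or pseudoaligned reads and deposited by the authors without scaling, and 20.3% of non-zero values were not whole. Per the labels, the submitters' processing notes name bcl2fastq 2.20.0.422, STAR 2.5.1b, RSEM 1.2.31, kallisto 0.44.0 and mm10. Which tool made the table, and whether strand was used, is not given in the sources used here. Ensembl identifiers were matched to GENCODE release 21 for symbols (42462 of 43346) and coordinates. Counts were rounded to whole numbers. Genes that reached, in at least 9 libraries, the CPM equal to 10 counts in the median library were kept, and log2 fold changes were fitted with limma-voom (limma 3.58.1, edgeR 4.0.16, R 4.3.3) on TMM-scaled counts. The 3-week groups, the 11-week groups and, for differences between times, all libraries were fitted separately (3 fits), with a term per group. A gene was called at adjusted p under 0.05 (Benjamini-Hochberg over all genes tested) and log2FC of 1 or more either way; interactions were called at adjusted p alone. Overlap of groups was read from CPM per library. Nos2 relations used log2(CPM + 0.1) and 100000 permutations, two-sided, and ratios per kb a pseudocount of 0.01. Exact 95% intervals of count ratios are conditional binomial, and those of log2FC are normal intervals from the SE.

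The 9 members, the pathway and marker lists and the tests were chosen with earlier results of these data known. Named genes were the 9 members, up to 4 called genes with the largest log2FC per list in the HDM and smoke comparisons, up to 2 elsewhere, and the 3 genes most alike per member. On simulated counts, 98 to 100% of 200 changed genes passed the adjusted p alone for HDM in airways at 3 weeks (16912 genes) and at 11 weeks (17681 genes). Of the unchanged genes 0% were called. The simulation gave every gene the same spread and changed no gene of few counts. It therefore does not measure power for the calls reported here, least of all for Nos1 or members of wide spread. Groups came from the labels, which do not say which libraries share a mouse, so p-values measure the spread between libraries and airway and parenchyma libraries were treated as independent. No libraries were duplicates. edgeR's quasi-likelihood test, DESeq2 1.42.0, DESeq2 size factors, other filters, quality weights, all libraries in 1 fit, blocks of library codes and left-out libraries were tried as alternatives. Prmt1 is not reported here. Python 3.11.15, numpy 2.4.6, pandas 2.3.3, scipy 1.17.1 and matplotlib 3.10.9 were used for tables and figures.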

Additional observations from a re-analysis of the deposited data

Results flagged for a closer look

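In 31 combinations of a member and a group of 10 libraries, or 19.1% of those tested, 1 library lay apart from the other 9, with a gap to its nearest neighbour that was too large a share of the group's range by Dixon's test. Chance gives about 1 such group in 20 only where levels are normally distributed. The test was run on CPM without a log scale, so that rate is no yardstick for the share found. Groups are at 11 weeks unless stated, and the level of the nearest library stands in brackets after each. For Nos2 the libraries apart were X125 at 11.5 CPM in airways after PBS and air (5.27), X107 at 7.94 CPM in airways after PBS, air and DEX (5.59), X29 at 127.2 CPM in airways after HDM (58.5) and X30 at 123.2 CPM in parenchyma after HDM (67.3). Nos2 also had X115 at 7.88 CPM in airways after smoke and DEX (4.76), X116 at 14.9 CPM in parenchyma after smoke and DEX (7.50) and X38 at 19.6 CPM in parenchyma after HDM plus smoke (10.04). For Nos3 they were X63 at 18.5 CPM in airways after HDM at 3 weeks (13.4), X133 at 22.9 CPM in airways after smoke (17.4), X159 at 24.1 CPM in airways after HDM plus smoke and DEX (17.8) and X160 at 21.5 CPM in parenchyma after HDM plus smoke and DEX (14.8). Nos1, at few counts, had X89 at 0.672 CPM in airways after HDM (0.182), X70 at 5.70 CPM in parenchyma after HDM (0.192), X193 at 1.58 CPM in airways after smoke (0.878) and X74 at 0.207 CPM in parenchyma after smoke (0.0847). Nos1 also had X157 at 0.524 CPM in airways after HDM plus smoke (0.261) and X140 at 0.192 CPM in parenchyma after HDM plus smoke and DEX (0.0741). Arg1 had X150 at 148.5 CPM in parenchyma after HDM (63.1), X112 at 12.6 CPM in parenchyma after HDM and DEX (7.38), X116 at 12.3 CPM in parenchyma after smoke and DEX (2.27) and X77 at 68.02 CPM in airways after HDM plus smoke (29.1). Arg1 also had X78 at 46.01 CPM in parenchyma after HDM plus smoke (21.1) and X160 at 19.1 CPM in parenchyma after HDM plus smoke and DEX (6.42). Arg2 had a high and a low library, X166 at 22.2 CPM in parenchyma after PBS and air (16.2) and X94 at 20.1 CPM in parenchyma after smoke (34.1). Slc7a2 had X150 at 473 CPM in parenchyma after HDM (313). Ass1 had X75 at 30.04 CPM in airways after smoke and DEX (23.4) and X180 at 48.9 CPM in parenchyma after HDM plus smoke and DEX (36.4). Ddah1 had X58 at 49.3 CPM in parenchyma after HDM plus smoke (38.5). Odc1 had X173 at 125.1 CPM in parenchyma after smoke (83.6) and X116 at 120.9 CPM in parenchyma after smoke and DEX (80.9). X116 stood apart for Nos2, Arg1 and Odc1, X150 for Arg1 and Slc7a2, X160 for Nos3 and Arg1, and X70 held skeletal muscle transcripts.

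Differences between effects passed an adjusted p of 0.05 by limma-voom for 30 pairs of a member and a contrast, given here on the log2 scale. Several of these contrasts share libraries. The HDM effect in airways less that in parenchyma at 3 weeks was -1.76 for Ass1 (adjusted p = 0.00051). The tissue difference in HDM effects at 11 weeks was -2.53 for Nos1 (adjusted p = 0.021), -0.83 for Ass1 (adjusted p = 0.00053) and -0.52 for Odc1 (adjusted p = 0.00084). In airways the HDM effect in smoke less that in air was 0.90 for Nos3 (adjusted p = 6e-05) and -1.32 for Arg2 (adjusted p = 3.9e-05). In parenchyma this interaction of HDM and smoke was -2.05 for Nos2 (adjusted p = 8.4e-05), 1.06 for Nos3 (adjusted p = 1.4e-06), -1.65 for Arg2 (adjusted p = 1.7e-09), -1.23 for Slc7a2 (adjusted p = 5.5e-06), -1.27 for Ass1 (adjusted p = 6.4e-08), 0.84 for Ddah1 (adjusted p = 0.0072) and -0.41 for Odc1 (adjusted p = 0.0064). The DEX effect in HDM-exposed mice less that in PBS mice was, in airways, -1.59 for Nos2 (adjusted p = 0.014). In parenchyma this difference in DEX effects was -2.09 for Nos2 (adjusted p = 0.00049), 0.69 for Nos3 (adjusted p = 0.0096), -2.40 for Arg1 (adjusted p = 0.047), -0.93 for Arg2 (adjusted p = 0.0037) and -0.79 for Ass1 (adjusted p = 0.0055). Between times, the HDM effect at 11 weeks less that at 3 weeks was, in airways, -2.29 for Nos2 (adjusted p = 0.00079), -0.68 for Nos3 (adjusted p = 0.0022), -2.08 for Arg1 (adjusted p = 0.024) and -0.68 for Slc7a2 (adjusted p = 0.035). In parenchyma the difference between times was -3.49 for Nos2 (adjusted p = 7.4e-08), -0.96 for Nos3 (adjusted p = 6e-05), -2.54 for Arg1 (adjusted p = 0.0049), -0.64 for Arg2 (adjusted p = 0.029), -1.23 for Slc7a2 (adjusted p = 4.5e-05), -1.44 for Ass1 (adjusted p = 4.6e-07) and -0.82 for Ddah1 (adjusted p = 0.0073).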

How the results depend on the processing

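Of 2888 log2 fold changes of members under an alternative, 2775 kept their direction and side of the threshold, 65 small values moved, 32 gained a call, 14 lost one and 2 reversed, and 315 of 328 counts of called members stayed within 1.5 times. Counts moved as follows. The test of HDM effects between tissues at 3 weeks called 2 members, not 1, with all libraries in 1 fit. The DEX by HDM interaction in airways called 2 by edgeR and 2 by DESeq2, and 0 with genes under 10 CPM left out and 0 with all libraries in 1 fit, against 1. edgeR and DESeq2 called 2 and 2 members for smoke in parenchyma (against 1), 1 and 1 for DEX in smoke mice in parenchyma and 1 and 1 for DEX in HDM plus smoke mice in parenchyma (against 0 each). The comparison of control airways and parenchyma at 11 weeks called 1 with genes under 10 CPM left out and 1 with quality weights, against 2. Nos1 reversed for smoke added to HDM in parenchyma, at -2.67 by edgeR and -2.82 by DESeq2 against 0.32 (0.99 without X70), and its HDM effect there was 4.35 and 4.60 by these tools. Among calls lost, Nos1 in airways of HDM plus smoke mice was -1.02 (adjusted p = 0.083) with quality weights, Arg1 in parenchyma of HDM plus smoke mice 1.97 (adjusted p = 0.055) with genes under 10 CPM left out, and the Nos2 DEX by HDM interaction in airways -1.59 (adjusted p = 0.055) with genes under 10 CPM left out. The causes were not tested. A block for the round of 20 library codes added 1 call, the Nos2 interaction of HDM and smoke in airways, and lost 0. No paired analysis was possible because the labels give no replicate number shared between groups and do not say that neighbouring codes come from 1 mouse. Depth limited Nos1, whose parenchyma libraries held few counts. Alternatives without X63, X5 and X81, X32 or X70 were chosen after seeing the data.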

Other observations

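Library codes of airway and parenchyma alternate within a condition, and neighbouring codes held the highest airway and the highest parenchyma library of a condition for Nos2 in 6 of 10 conditions, for Arg1 and Ddah1 in 4, for Nos3 and Ass1 in 3, for Slc7a2 in 2, for Arg2 and Odc1 in 1 and for Nos1 in 0. For Nos2 these pairs included X23 and X24 in HDM-exposed mice at 3 weeks and X29 and X30, at 127.2 and 123.2 CPM, in HDM-exposed mice at 11 weeks. The labels do not say that neighbouring codes come from 1 mouse, and no test was made.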
